A study of Homo sapiens with 12 samples.

Results

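The snoRNAs described here were those that carry a U number in the annotation of the study, leaving out U22, U25 to U31, U32A, U33, U34, U35A, U44, U47, U74 to U81, U95 and U96a. An entry was taken when it was typed as snoRNA in both deposited tables and its name was U followed by a number. The rule used names only and gave 80 of the 285 snoRNA entries found in both tables, out of 990 shared and 1380 different noncoding RNA entries in all. Mono Mac 6 (MM6) is a human monocytic leukaemia cell line, and 5-lipoxygenase (5-LO, gene ALOX5) is the enzyme that opens leukotriene synthesis. Small RNA of MM6 cells was sequenced in 4 groups of 3 libraries, which were wild type and ALOX-5 -/- (5-LOΔ), each with and without lipopolysaccharide (LPS, a bacterial stimulus of monocytes) at 1 µg/mL for 6 h. All 12 libraries, the wild-type ones included, came from cells differentiated with TGF-β at 1 ng/mL and calcitriol at 50 nM for 72 h. The 5-LOΔ cells were clones grown from single cells after lentiviral CRISPR/Cas9 editing and puromycin selection, and the labels do not say which clone gave a library. The wild-type cells are not described as carrying the vector, so clone, vector and genotype cannot be told apart.

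Small nucleolar RNAs act as guides in the nucleolus. Box C/D snoRNAs direct 2′-O-methylation of ribosomal RNA, box H/ACA snoRNAs direct the conversion of uridine to pseudouridine, and small Cajal body RNAs (scaRNAs) do the same for the RNAs of the spliceosome. A few members, among them U3, U8 and U17, are needed instead for cutting the ribosomal RNA precursor. In human cells most are not transcribed from promoters of their own but are cut out of the introns of host genes, many of which encode ribosomal proteins. By their RefSeq symbols, or by class where no symbol could be assigned, the 80 comprised 51 C/D snoRNAs, 20 H/ACA snoRNAs and 9 scaRNAs. A symbol was found for 75 of them. A position in GRCh37, the build of the reads, was found for 59, of which 58 lay inside a host gene and 57 in an intron of at least 1 host transcript.

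The following sequences are the snoRNAs on which most of the values below turn, read from GRCh37 on the strand of the RNA, with the letters of the box motifs in capitals (TGATG near the 5′ end and CTGA near the 3′ end of C/D snoRNAs, ACA near the 3′ end of H/ACA snoRNAs). U104 (SNORD104, chr17:62223443-62223512, plus strand, in SNHG25) was the most abundant of the 80, and U106 (SNORD12C, chr20:47895477-47895565, plus strand, in ZFAS1) had the lowest ratio of 5-LOΔ to wild-type cells without LPS.
U104: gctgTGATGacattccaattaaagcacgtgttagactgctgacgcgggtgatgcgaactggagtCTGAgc
U106: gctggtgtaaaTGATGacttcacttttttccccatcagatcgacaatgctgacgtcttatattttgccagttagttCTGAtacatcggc
U24 (SNORD24, chr9:136216251-136216325), U36A (SNORD36A, chr9:136217311-136217383) and U36B (SNORD36B, chr9:136216950-136217023) are all cut from introns of RPL7A on the plus strand and are shown because they share a host but not a level.
U24: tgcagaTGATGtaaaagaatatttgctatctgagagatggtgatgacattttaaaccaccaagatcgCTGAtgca
U36A: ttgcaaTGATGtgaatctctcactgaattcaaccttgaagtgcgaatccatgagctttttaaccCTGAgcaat
U36B: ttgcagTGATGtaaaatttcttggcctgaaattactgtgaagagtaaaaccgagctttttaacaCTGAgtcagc
U48 (SNORD48, chr6:31803040-31803103) and U52 (SNORD52, chr6:31804853-31804919) both lie on the plus strand in SNHG32 and had the widest gap in level of any host pair.
U48: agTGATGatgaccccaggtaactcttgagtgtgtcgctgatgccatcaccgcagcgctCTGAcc
U52: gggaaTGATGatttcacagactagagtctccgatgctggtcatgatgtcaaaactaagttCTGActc
U45A (SNORD45A, chr1:76253574-76253657) and U45C (SNORD45C, chr1:76252757-76252835), on the plus strand in RABGGTB, are close relatives in sequence with nearly equal levels.
U45A: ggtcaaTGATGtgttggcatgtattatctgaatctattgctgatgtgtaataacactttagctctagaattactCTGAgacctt
U45C: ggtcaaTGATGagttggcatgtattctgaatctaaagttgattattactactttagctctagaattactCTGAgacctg
The H/ACA snoRNAs U70 (SNORA70, chrX:153628622-153628756, plus strand, in RPL10) and U99 (SNORA57, chr11:62432894-62433042, plus strand, in CSKMT) differed most, in opposite directions, between the tables with and without LPS among members with at least 100 normalized counts.
U70: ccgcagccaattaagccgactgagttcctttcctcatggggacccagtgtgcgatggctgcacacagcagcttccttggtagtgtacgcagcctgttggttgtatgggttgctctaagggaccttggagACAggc
U99: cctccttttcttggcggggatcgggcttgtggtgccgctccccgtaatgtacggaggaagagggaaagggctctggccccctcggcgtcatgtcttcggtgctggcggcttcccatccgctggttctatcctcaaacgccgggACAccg
Searched on the strand of the RNA within 25 bases of either end, TGATG was found in 34 and CTGA in 36 of the 37 C/D members with a sequence, and both in 91.9%. Both motifs together were found in 61.2% of the other 348 annotated SNORD genes and in 1.05% of the other 381 SNORA genes. The C/D members without TGATG there were U8, U13 and U97. ACA with 2 to 6 bases after it stood at the end of 11 of 16 H/ACA members (68.8%), beside 61.9% of the other annotated SNORA genes and 4.6% of the other SNORD genes. A match describes the letters only.

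Each deposited value was a mean over the 3 libraries of a group of read counts divided by a size factor, called normalized counts here. The libraries behind a mean were not given apart. The spread between replicates on both sides of a comparison is therefore unknown except for U73b and U96b, whose few reads could be recovered, and every other ratio below is a description with no test. Intervals printed with ratios are 95% counting intervals, which cover the sampling of reads and not the differences between cultures. The means summed to between 9680900 and 12142900 normalized counts per group over all entries, and snoRNAs made up 59.4% to 64.4% of that sum. The myeloid miR-223-3p was present in all 4 groups at 57.96 to 93.8 normalized counts. miR-146a-5p, which monocytes are known to induce after LPS, was 7.78-fold higher with LPS in wild-type and 6.62-fold higher in 5-LOΔ cells, taken per 1000000 of a group's summed means. The tables with and without LPS were normalized separately, and taken as deposited the median log2 ratio of all entries with LPS to without was -0.19 in either genotype, which bears on levels set side by side across them. The mRNA of ALOX5 is not measured by such libraries, so the knockout could not be checked here.

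The 80 snoRNAs accounted for 25.4% of all normalized counts in wild-type cells, 26.4% in 5-LOΔ cells, 25.4% in wild-type cells with LPS and 24.6% in 5-LOΔ cells with LPS. Nearly all of this came from C/D snoRNAs, whose summed level in wild-type cells was 2713710 normalized counts against 21382.6 for H/ACA snoRNAs and 1775 for scaRNAs. Every member was above 0 in every group, and 78 reached 10 normalized counts in all 4. The highest mean was 146074 times the lowest in wild-type cells.

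U104 alone was at 725018 normalized counts in the wild type, 974616 in 5-LOΔ cells, 650211 in wild-type cells with LPS and 752977 in 5-LOΔ cells with LPS. Its level per 1000000 of the group's summed means, called relative abundance here, averaged 72224 over the groups, about 3 times that of the next member. The next places were taken by U42A at a relative abundance of 23436, U50 at 22689, U102 at 21393, U45A at 14552 and U45C at 13947, followed by U61, U60, U106 and U83A. All 10 are C/D snoRNAs, and together they held 78.8% of the members' sum in wild-type and 82.9% in 5-LOΔ cells. Divided by RefSeq length, 9 of these 10 were still among the highest 10, and U37 (SNORD37) took the place of U83A. U50 and U42A changed order with genotype. U50 (SNORD50A) was higher than U42A in wild-type cells, at 281892 against 213451 normalized counts, and lower in 5-LOΔ cells, at 250453 against 297725. The same order was found with LPS, where U50 stood at 261182 in wild-type and 172278 in 5-LOΔ cells and U42A at 199875 and 292145. These orders were also the orders per length.

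**Figure D1:**
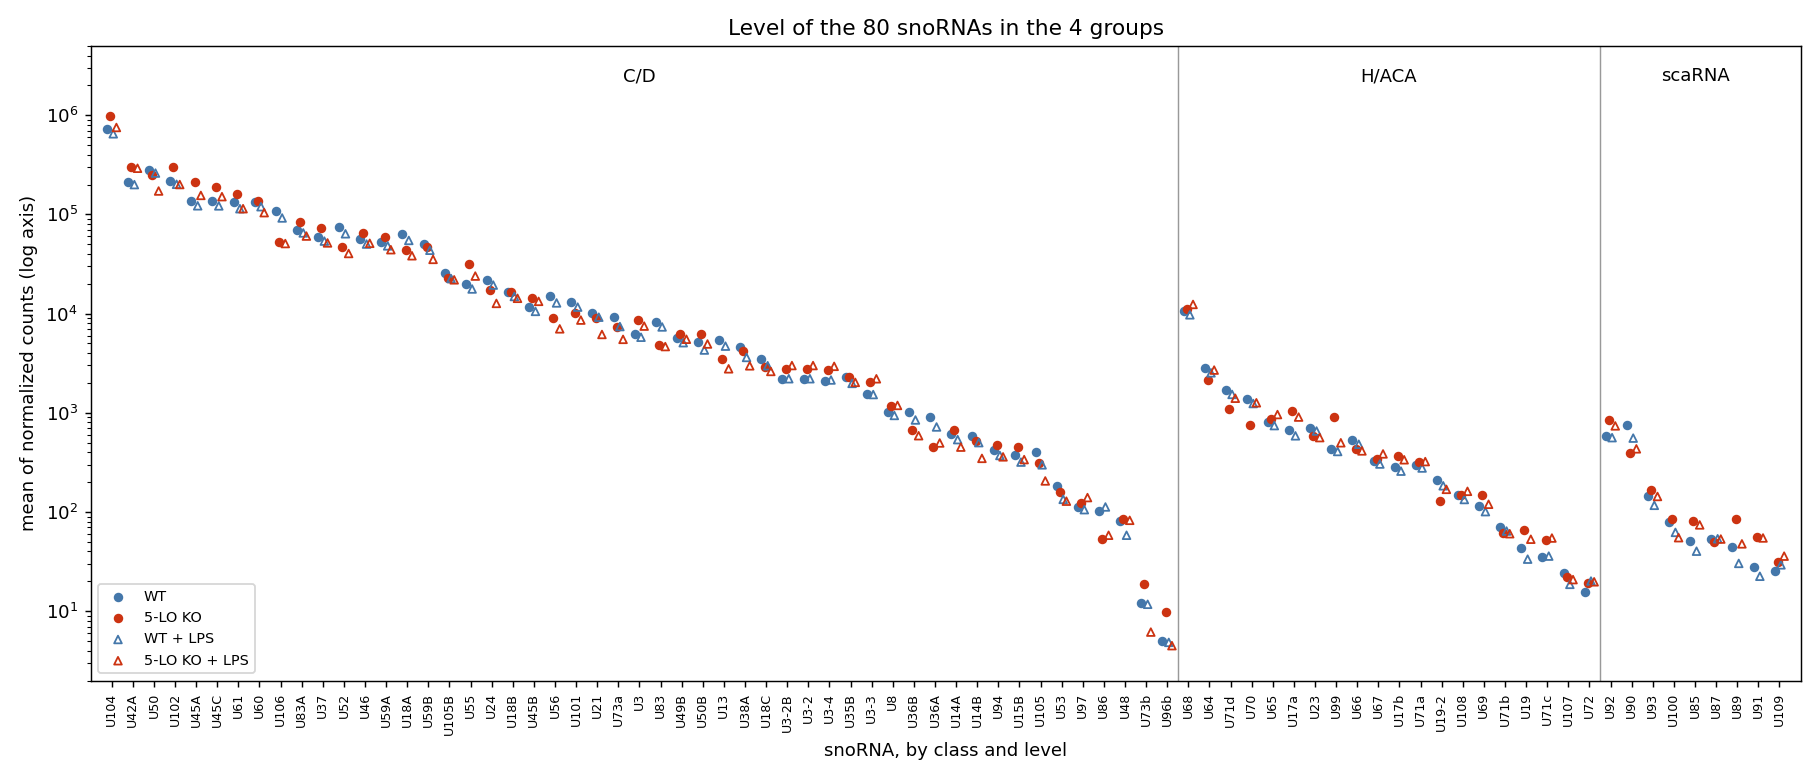
Mean of normalized counts (log axis) of the 80 snoRNAs, ordered by class and by level within a class, in the 4 groups. Each point is 1 group mean with no error bar because the libraries were not given apart. C/D snoRNAs reach 974616 normalized counts, while scaRNAs reach 847 and U96b stays below 10 in all 4 groups.

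Longer members had lower levels on the whole. The libraries were size selected for inserts of miRNA and miRNA precursor size and read from a single end, so RNAs beyond about 134 bases could enter only as fragments. The 38 members of up to 100 bases, all C/D, had a median of 13977 normalized counts in wild-type cells. The next 9, of up to 134 bases, had a median of 536, and the 28 still longer ones had 352. Over the 75 members with a RefSeq length, Spearman's rho of length and level was -0.54 in wild-type cells, -0.51 in 5-LOΔ cells, -0.53 in wild-type cells with LPS and -0.50 in 5-LOΔ cells with LPS. Divided by length, rho was -0.62 in wild-type and -0.60 in 5-LOΔ cells. The points share libraries, and length and class go together, since all members of up to 100 bases were C/D. Short length did not go with a high level in every case, since U48, U73b and U96b, all under 100 bases, were among the lowest members. The U3 entries stood above the other members of over 200 bases, with U3 itself at 6195 normalized counts in wild-type cells.

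**Figure D2:**
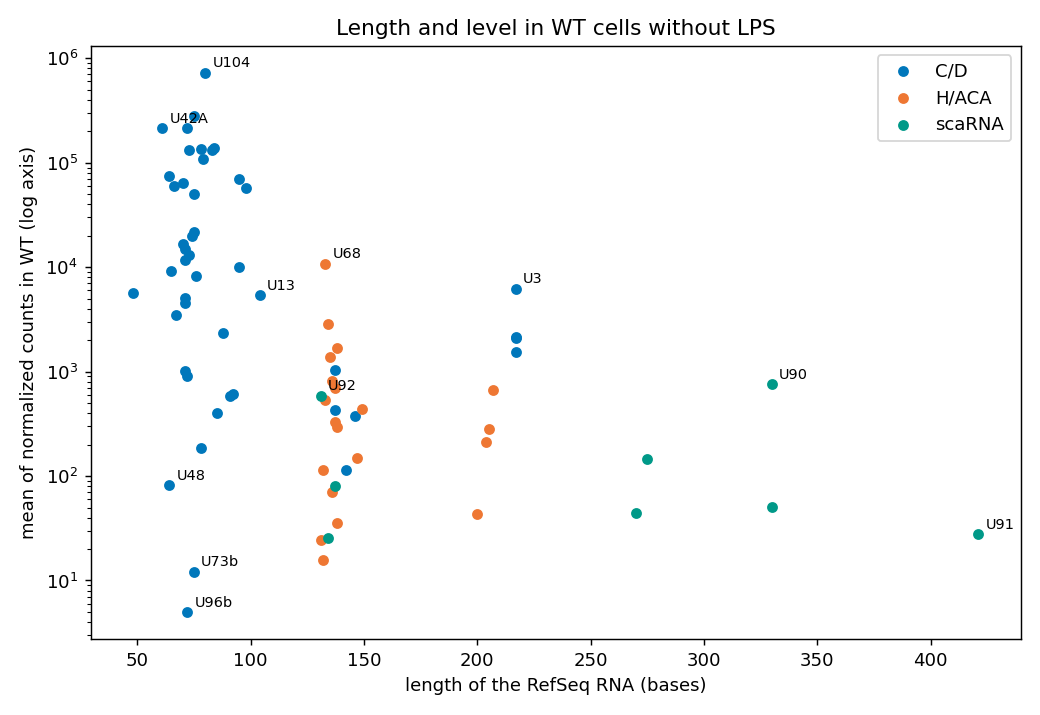
Length of the RefSeq RNA in bases against the mean of normalized counts in wild-type cells without LPS (log axis), for the 75 members with a length, coloured by class. The highest points lie below 100 bases, whereas the longest RNA, U91, is at 27.6 normalized counts.

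To ask how the loss of 5-LO went with snoRNA levels, the ratio of 5-LOΔ to wild-type means was taken within the table without LPS. U91 (SCARNA17) and U99 were at least 2-fold higher in 5-LOΔ cells, and U106 and U36A were at least 2-fold lower. These were 2 higher and 2 lower of the 79 members with at least 10 normalized counts in both groups. Among all 643 entries that met this minimum, 2.49% were at least 2-fold higher and 5.13% at least 2-fold lower. The median log2 ratio of the members was 0.084, against 0.027 over all entries, with 45 members higher and 34 lower. When both groups were scaled to the same sum, the median of all entries moved to -0.15 and that of the members to -0.091, and 33 members were higher and 46 lower. Under that scaling no member was at least 2-fold higher and 5 were at least 2-fold lower, and with equal sums of snoRNA means the numbers were 0 and 3, so the calls of U91 and U99 as 2-fold higher rest on the means as deposited. A scaling moves every log2 ratio of a comparison by the same amount, with equal sums of all means by -0.17 without LPS and by -0.070 with LPS, and so leaves the distance of the members from all entries as it is.

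U106 was at 108867 normalized counts in the wild type, 53349.5 in 5-LOΔ cells, 92169.5 in wild-type cells with LPS and 50880.2 in 5-LOΔ cells with LPS. Both 5-LOΔ means were lower than both wild-type means, but U106 was named for its low ratio and the tables were normalized separately. The log2 ratio was -1.03 without LPS (95% counting interval -1.04 to -1.02) and -0.86 with LPS. Its host ZFAS1 also carries SNORD12 and SNORD12B, listed as HBII-99 and HBII-99B, which lie outside the rule and were chosen for their host after the values of U106 were seen. Their log2 ratios were -0.79 and -0.38 without LPS and -0.55 and -0.85 with LPS. All 3 snoRNAs of the host were thus lower in 5-LOΔ cells in both tables. Among entries outside the members, 207 of 552 were also lower in both, and 67 of the 195 snoRNA entries.

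U36A was at 913 normalized counts in the wild type, 453 in 5-LOΔ cells, 720.0 in wild-type cells with LPS and 497 in 5-LOΔ cells with LPS. Its log2 ratio was -1.01 (-1.11 to -0.91) without LPS and -0.54 (-0.63 to -0.44) with LPS. U99 was at 434 normalized counts in the wild type, 898 in 5-LOΔ cells, 407 in wild-type cells with LPS and 499 in 5-LOΔ cells with LPS. The mean of 5-LOΔ cells without LPS stood apart from the other 3, and the log2 ratio was 1.05 (0.95 to 1.14) without LPS and 0.29 (0.18 to 0.40) with LPS. Among members with at least 100 normalized counts in both groups, the highest ratios without LPS after U99 were those of U55 (0.69), U17a (0.66), U45A (0.62) and U92 (0.52), and the lowest after U106 and U36A were those of U90 (-0.94), U70 (-0.89) and U83 (-0.77). By a fold of 1.5, which was chosen after the data had been seen, 9 members were higher and 12 lower of 79, beside 13.1% and 12.9% of all entries tested.

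With LPS, U91 was the only member past 2-fold in this comparison, and no member was 2-fold lower, of 78 with at least 10 normalized counts. Over all 636 entries tested with LPS, 2.36% were at least 2-fold higher and 6.76% at least 2-fold lower. The median log2 ratio of the members was 0.013, against 0.0019 over all entries, with 40 higher and 38 lower. By a fold of 1.5, 6 members were higher and 8 lower, beside 13.1% and 15.1% of all entries. U91 was at 27.6 normalized counts in the wild type, 55.9 in 5-LOΔ cells, 22.5 in wild-type cells with LPS and 54.7 in 5-LOΔ cells with LPS. It is therefore a member of low level, and its log2 ratios of 1.02 without LPS (0.64 to 1.40) and 1.28 with LPS (0.87 to 1.70) have wide intervals. The highest ratios with LPS among members with at least 100 normalized counts were those of U17a (0.63), U42A (0.55), U3-3 (0.53), U3-4 (0.46) and U3-2 (0.44). The lowest were those of U56 (-0.87), U106 (-0.86), U13 (-0.76), U52 (-0.66) and U83 (-0.66).

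The tables without and with LPS came from different libraries, so the ratios of a snoRNA in them are separate measurements, although the 5-LOΔ clones and the wild-type line may be the same in both. Of the 78 members with at least 10 normalized counts in all 4 groups, 64 (82.1%) had a log2 ratio of the same sign in both, 35 higher and 29 lower in 5-LOΔ cells. The same share was 75.9% over 195 other snoRNA entries and 77.2% over 552 other entries of all kinds. Pearson's r of the log2 ratios across the members was 0.82, and Spearman's rho 0.82. These are across snoRNAs that share libraries and host genes and are given without a test.

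At least 1.5-fold higher in both tables were U17a, U19, U85, U89 and U91. At least 1.5-fold lower in both were U13, U52, U56, U83, U86 and U106. These 5 and 6 of 78 members (6.41% and 7.69%) stood beside 7.61% and 8.88% of the 552 other entries. Of the 5 higher ones, U19, U85, U89 and U91 were below 100 normalized counts in every group, and U17a was above. U56 (SNORD56) was at 14949.8 normalized counts in the wild type, 8986 in 5-LOΔ cells, 12821 in wild-type cells with LPS and 7024 in 5-LOΔ cells with LPS, and U83 (SNORD117, in DDX39B) was at 8302 normalized counts in the wild type, 4869 in 5-LOΔ cells, 7341 in wild-type cells with LPS and 4655 in 5-LOΔ cells with LPS. In both cases neither 5-LOΔ mean reached the lower wild-type mean. Their choice as 1.5-fold lower in both tables largely fixes this, and the tables were normalized separately. U86, for which SNORD86 and SNORD139 could not be told apart by name, was far lower in level, at 103, 53.9, 112 and 58.3 in the same order of groups, with log2 ratios of -0.94 without and -0.95 with LPS.

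**Figure D3:**
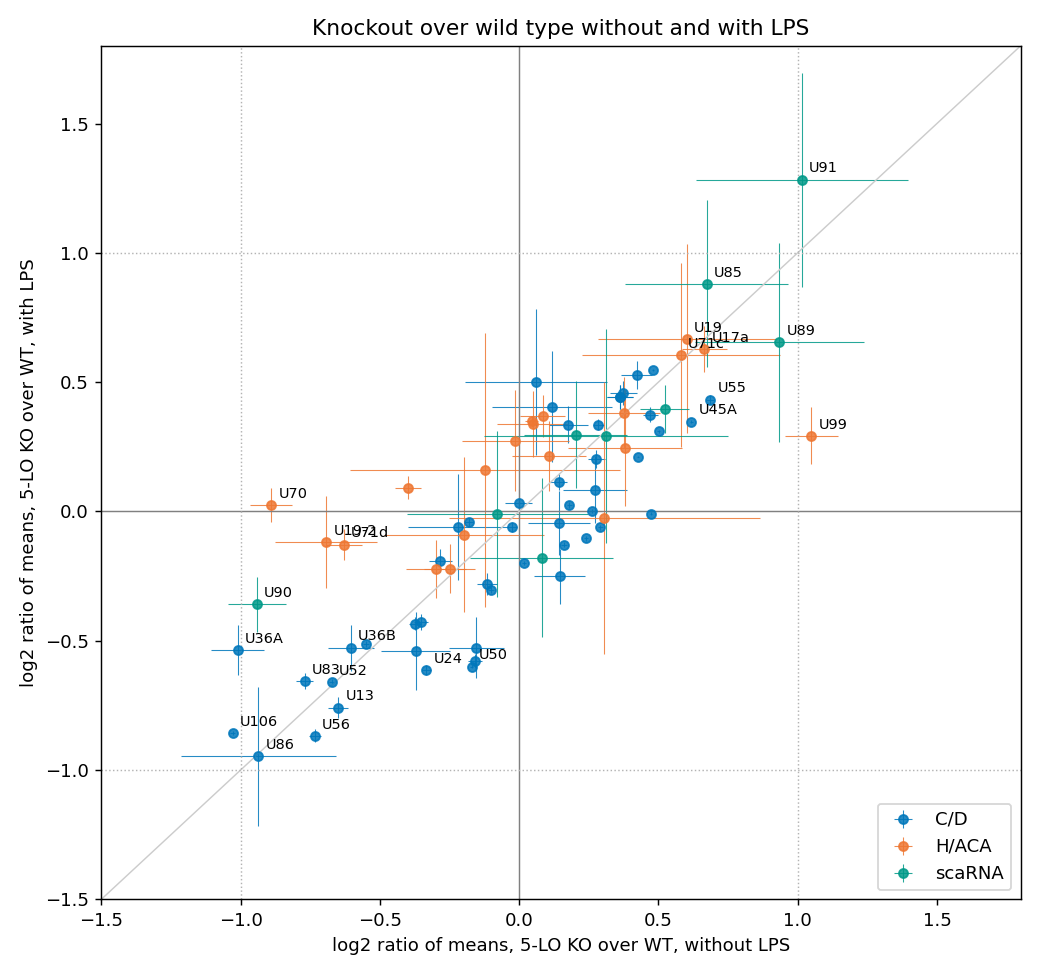
Log2 ratio of 5-LOΔ (KO) to wild-type (WT) means without LPS (horizontal) and with LPS (vertical) for the 78 members with at least 10 normalized counts in all 4 groups, coloured by class. Bars are 95% counting intervals, dotted lines mark a 2-fold ratio, the diagonal marks equal ratios, and 64 of the 78 points lie in the upper right or lower left quadrant.

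The difference between the ratio with LPS and that without was largest, among members with at least 100 normalized counts in all groups, for U70, U90, U19-2, U71d and U64 on the positive side and for U99, U102, U50, U21 and U14A on the negative side. U70 was at 1382 normalized counts in the wild type, 745 in 5-LOΔ cells, 1241 in wild-type cells with LPS and 1263 in 5-LOΔ cells with LPS. The 5-LOΔ mean without LPS was low against the other 3, and the log2 ratio went from -0.89 to 0.025, a difference of 0.92 (0.82 to 1.02). U90 (SCARNA7) was at 759 normalized counts in the wild type, 395 in 5-LOΔ cells, 556 in wild-type cells with LPS and 433 in 5-LOΔ cells with LPS, with a difference of 0.58 (0.43 to 0.73). U99 differed by -0.76 (-0.90 to -0.61). U102 (SNORD102, in RPL21) was at 217366 normalized counts in the wild type, 301860.0 in 5-LOΔ cells, 201444 in wild-type cells with LPS and 200259 in 5-LOΔ cells with LPS, so that its log2 ratio was 0.47 without LPS and -0.0085 with LPS.

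The members on a preset list of snoRNAs for processing of the ribosomal RNA precursor were 5 U3 entries, U8, U13, U14A, U14B, U17a and U17b. Of these 11, 9 were higher in 5-LOΔ cells without LPS and 8 with LPS, with median log2 ratios of 0.36 and 0.38. Over all entries, 337 of 643 and 319 of 636 were higher, with medians of 0.027 and 0.0019. With U3 counted once, 5 of 7 were higher without and 4 of 7 with LPS, and the medians were 0.18 and 0.34, or 0.0020 without LPS when both groups were scaled to the same sum. None was past 2-fold. Only U14A and U14B of the list had a RefSeq length under 100 bases. Of all members of 100 bases or more, 26 of 37 were higher in 5-LOΔ cells without and 27 of 37 with LPS. Their median log2 ratios were 0.18 and 0.29, so the ratios of the list were not set apart from those of long members. The part of length in them was not tested. U3, which is needed for the early cuts that release 18S rRNA, was at 6195 normalized counts in the wild type, 8582 in 5-LOΔ cells, 5779 in wild-type cells with LPS and 7486 in 5-LOΔ cells with LPS, with log2 ratios of 0.47 without and 0.37 with LPS. The other U3 entries had log2 ratios of 0.36 to 0.42 without and 0.44 to 0.53 with LPS. They are not independent, because U3-2 and U3-2B had means within 0.013% of each other in all groups and U3-4 within 3.0% of U3-2. Reads of near-identical copies may be shared or split between them, so the U3 entries are uncertain as separate RNAs. U17a (SNORA73A) and U17b (SNORA73B), which act on the 5′ part of the precursor, were at 664, 1053, 586 and 906 and at 285, 369, 258 and 336 in the order wild type, 5-LOΔ, wild type with LPS and 5-LOΔ with LPS, with log2 ratios of 0.66 without and 0.63 with LPS for U17a and of 0.38 without and 0.38 with LPS for U17b. U8 (SNORD118), which is needed for the large subunit RNAs, had log2 ratios of 0.18 without and 0.34 with LPS. U13 (SNORD13) had the lowest ratios of the list. It was at 5408 normalized counts in the wild type, 3449 in 5-LOΔ cells, 4701 in wild-type cells with LPS and 2777 in 5-LOΔ cells with LPS, with log2 ratios of -0.65 without and -0.76 with LPS. U14A and U14B, both in RPS13, had log2 ratios of 0.15 and -0.15 without LPS and of -0.25 and -0.53 with LPS.

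Among the scaRNAs, 7 of 9 were higher in 5-LOΔ cells without LPS and 6 of 9 with LPS, and their median log2 ratios were 0.31 and 0.30, beside the 337 of 643 and 319 of 636 higher over all entries. With both groups scaled to the same sum, 6 of 9 were higher without LPS, with a median of 0.14, beside 250 of 643 entries. Most were of low level, since only 3 reached 100 normalized counts in wild-type cells. All scaRNAs with a RefSeq length were longer than 100 bases. The 37 members of 100 bases or more had median log2 ratios of 0.18 without and 0.29 with LPS. U85 (SCARNA10), which joins a C/D and an H/ACA part in a single RNA, was at 50.6, 80.7, 40.3 and 74.1 in the order wild type, 5-LOΔ, wild type with LPS and 5-LOΔ with LPS, with log2 ratios of 0.67 without and 0.88 with LPS. U89 (SCARNA12, in PHB2) was at 44.2, 84.5, 30.3 and 47.7, with log2 ratios of 0.93 without and 0.65 with LPS. U92 (SCARNA8, in HAUS6), which was among the more abundant scaRNAs, was at 589, 847, 562 and 738, with log2 ratios of 0.52 without and 0.39 with LPS. U90 and U87 were the scaRNAs that were lower in both tables, U90 with log2 ratios of -0.94 without and -0.36 with LPS and U87, which RefSeq names did not separate from SNORD87, with -0.078 without and -0.0095 with LPS.

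The H/ACA snoRNAs had median log2 ratios of 0.047 without and 0.23 with LPS, with 11 and 14 of 20 (55% and 70%) higher in 5-LOΔ cells. The C/D snoRNAs had medians of 0.090 and -0.061, with 27 of 50 and 20 of 49 (54% and 40.8%) higher. Over all entries 52.4% and 50.2% were higher. Both medians without LPS turned negative when the groups were scaled to the same sum, at -0.13 for H/ACA and -0.085 for C/D snoRNAs. U68 (SNORA68), the most abundant H/ACA member, was at 10750.2 normalized counts in the wild type, 11090.0 in 5-LOΔ cells, 9727 in wild-type cells with LPS and 12381 in 5-LOΔ cells with LPS. In the same tables, 57 H/ACA entries outside the rule, listed as ACA with a number, had medians of 0.015 and -0.014. The 89 C/D entries listed as HBII with a number had medians of 0.19 and 0.14.

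Small C/D and H/ACA RNAs often serve as reference RNAs when miRNAs are measured by qPCR. In the study itself U48 was used so in 5-LO knockdown and control knockdown cells. The qPCR of 5-LOΔ cells there used other references. Of the preset reference RNAs, 8 entries were members (U18A, U18B, U18C, U19, U19-2, U24, U48 and U66), and 6 of the 8 were lower in 5-LOΔ cells in either table, with median log2 ratios of -0.29 without and -0.16 with LPS. Over all entries, 306 of 643 and 317 of 636 were lower, with medians of 0.027 and 0.0019. With both groups scaled to the same sum, 7 of the 8 and 393 of 643 entries were lower without LPS, with medians of -0.47 and -0.15. None of the 8 was past 2-fold. U48 was at 81.7 normalized counts in the wild type, 85.2 in 5-LOΔ cells, 58.3 in wild-type cells with LPS and 82.4 in 5-LOΔ cells with LPS, with log2 ratios of 0.061 (-0.19 to 0.32) without LPS and 0.50 (0.22 to 0.78) with LPS. Its wild-type mean with LPS was the lowest of the 4. U24 was at 21896 normalized counts in the wild type, 17377 in 5-LOΔ cells, 19408 in wild-type cells with LPS and 12679 in 5-LOΔ cells with LPS, with log2 ratios of -0.33 without and -0.61 with LPS. U18A (SNORD18A) was at 63938, 43637, 54701 and 38326 in the same order of groups and had log2 ratios of -0.55 without and -0.51 with LPS, while U18B had -0.025 without and -0.061 with LPS and U18C -0.28 without and -0.19 with LPS. U66 (SNORA66, in RPL5) had log2 ratios of -0.30 without and -0.22 with LPS. U19 (SNORA74A) and U19-2 (SNORA74B) went apart. U19 had log2 ratios of 0.60 (0.28 to 0.92) without and 0.67 (0.30 to 1.03) with LPS. U19-2 had -0.69 (-0.88 to -0.51) without and -0.12 (-0.30 to 0.058) with LPS. U19 was of low level, at 43.8, 66.4, 33.5 and 53.1 normalized counts in the same order of groups.

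Members that share a host gene need not share a level. The widest gap lay in SNHG32, where U52 was 911 times as abundant as U48 in wild-type cells, 548 times in 5-LOΔ cells, 1096 times in wild-type cells with LPS and 490 times in 5-LOΔ cells with LPS, both RNAs being of 64 bases in RefSeq. U52 was at 74447 normalized counts in the wild type, 46717 in 5-LOΔ cells, 63845 in wild-type cells with LPS and 40385 in 5-LOΔ cells with LPS, with log2 ratios of -0.67 without and -0.66 with LPS, whereas U48 had positive ones. In RPL7A, U24 was 23.02 times as abundant per base as U36A in wild-type and 36.8 times in 5-LOΔ cells. All 3 members of this host were lower in 5-LOΔ cells in both tables, U36B with log2 ratios of -0.60 without and -0.53 with LPS. Of 552 entries outside the members, 207 were lower and 219 higher in both tables. In RPL4 the 3 U18 copies were also all lower in both tables, and U18A was 17.6 times as abundant per base as U18C in wild-type cells. In RABGGTB all 3 members were higher in both tables. U45A and U45C are close relatives in sequence, and reads may be shared or split between them, which was not tested. U45A was at 138036 normalized counts in the wild type, 211900.0 in 5-LOΔ cells, 122235 in wild-type cells with LPS and 155524 in 5-LOΔ cells with LPS, U45C had log2 ratios of 0.50 without and 0.31 with LPS and the much less abundant U45B of 0.28 without and 0.34 with LPS. Of the 7 hosts plotted, SNHG17 held the widest range without LPS, from U71d at -0.63 to U71c at 0.58, although U71c had only 35.2 normalized counts in wild-type cells.

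**Figure D4:**
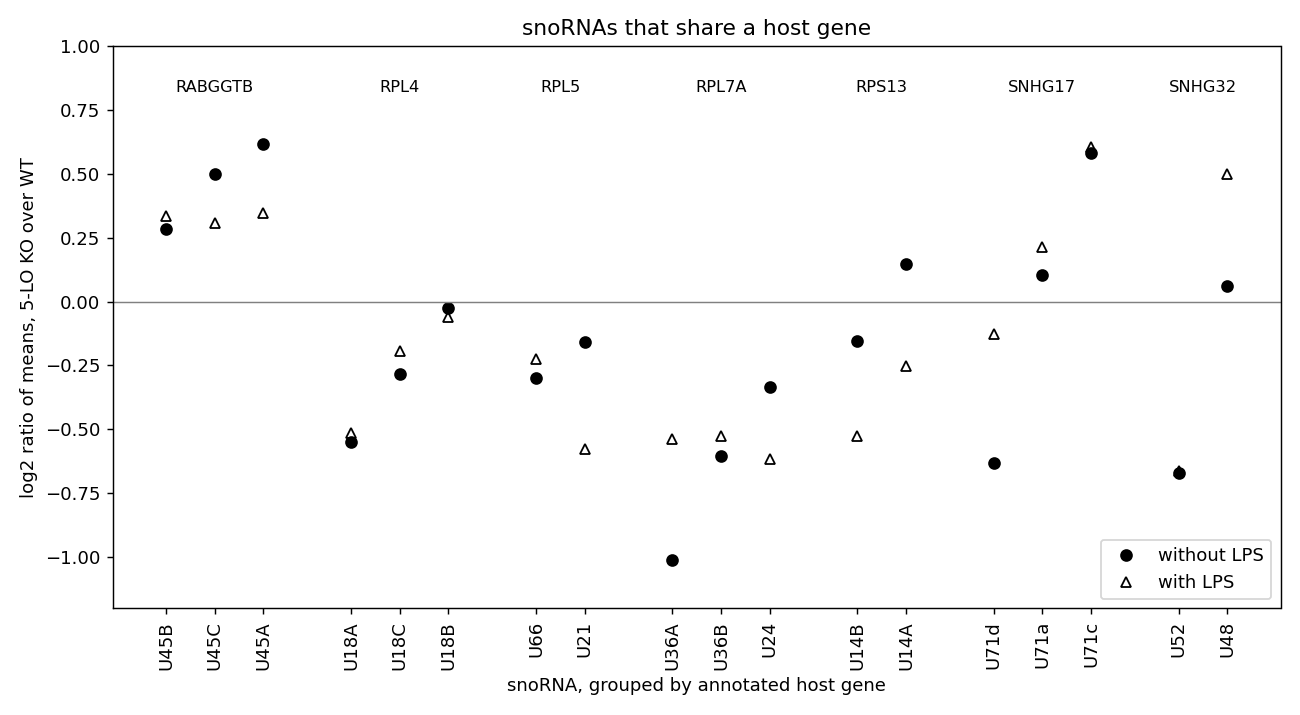
Log2 ratio of 5-LOΔ (KO) to wild-type (WT) means, without LPS (filled circles) and with LPS (open triangles), for the members of 7 host genes that hold more than 1 member. The points of RABGGTB all lie above 0 and those of RPL4, RPL5 and RPL7A below 0, while RPS13, SNHG17 and SNHG32 lie on both sides.

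By kind of host, the 25 members in ribosomal protein genes had median log2 ratios of -0.12 without and -0.10 with LPS, and 15 and 16 of them (60% and 64%) were lower in 5-LOΔ cells, beside 47.6% and 49.8% of all entries. The 9 members in long noncoding RNA genes had medians of 0.061 and 0.21. The members in other protein-coding genes, 23 of 24 with enough counts, had medians of 0.18 and 0.27, and 8 and 9 of them were lower. Where a member lay inside several genes, a protein-coding gene was taken first as its host. U17b was counted under RCC1, while the preset host list gives SNHG3. U8 was counted under TMEM107, although it lay in no intron of that gene. With both groups scaled to the same sum, the medians without LPS were -0.29 for ribosomal protein genes, -0.11 for long noncoding RNA genes and 0.0020 for other protein-coding genes, beside -0.15 over all entries, and 68% of the first were lower, beside 61.1% of all entries. U42A, U102 and U69 are examples from ribosomal protein genes with positive ratios without LPS, so not every snoRNA of such hosts was lower. The levels of the host transcripts were not measured in these libraries.

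The ratio of LPS to no LPS was taken within each genotype from tables that had been normalized separately, with each level taken as relative abundance. In wild-type cells none of 79 members was 2-fold higher or lower, beside 2.45% of 654 entries tested that were at least 2-fold higher and 0% that were 2-fold lower. The median log2 ratio was -0.011 and the quartiles of the members were -0.073 and 0.040, against -0.13 and 0.082 over all entries. Taken as deposited, the medians of all entries and of the members were -0.19 and -0.16 in wild-type cells, and -0.19 and -0.19 in 5-LOΔ cells. The highest ratios in wild-type cells among members with at least 100 normalized counts were those of U86 (0.28), U3-4 (0.18), U3-2B (0.18), U3-2 (0.18) and U3-3 (0.15), and the lowest were those of U53 (-0.31), U90 (-0.30), U105 (-0.29), U36A (-0.19) and U38A (-0.19). The qPCR reference RNAs had log2 ratios between -0.34 for U48 and -0.0018 for U66. All 8 were thus below 0, as were 400 of the 654 entries tested, and with the median ratio of shared entries set to 1, U18B, U24 and U66 were above 0.

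In 5-LOΔ cells the ratios of LPS to no LPS were spread more widely, with the quartiles of the members at -0.14 and 0.29. U70, at a log2 ratio of 1.02 (0.94 to 1.09), was the only member past 2-fold of 78, and none was 2-fold lower, beside 2.19% and 0.313% of 638 entries tested. U70 stood just past the 2-fold line, and its log2 ratio was 0.76 with the means as deposited and 0.95 with the median ratio of shared entries set to 1, so under these scalings no member was 2-fold higher. All entries were spread more widely in 5-LOΔ cells as well, from -0.15 to 0.31 at their quartiles. After U70, the highest ratios among members with at least 100 normalized counts were those of U19-2 (0.63), U71d (0.62), U64 (0.58) and U97 (0.44), and the lowest were those of U99 (-0.59), U105 (-0.35), U14B (-0.34), U102 (-0.34) and U14A (-0.33). U64 (SNORA64, in RPS2) was at 2846 normalized counts in the wild type, 2159 in 5-LOΔ cells, 2531 in wild-type cells with LPS and 2697 in 5-LOΔ cells with LPS. U105 (SNORD105, in PPAN) was at 405 normalized counts in the wild type, 313 in 5-LOΔ cells, 299 in wild-type cells with LPS and 206 in 5-LOΔ cells with LPS and was among the 5 lowest ratios of such members in both genotypes.

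By class, 17 of 20 H/ACA snoRNAs of 5-LOΔ cells were higher in relative abundance with LPS, with a median log2 ratio of 0.28, as were 7 of 9 scaRNAs, with a median of 0.13, and 23 of 49 C/D snoRNAs, with a median of -0.056. Over all entries, 374 of 638 were higher, with a median of 0.068. With the means as deposited, 11 of 20 H/ACA snoRNAs, 3 of 9 scaRNAs, 8 of 49 C/D snoRNAs and 194 of 638 entries were higher, with medians of 0.020, -0.12, -0.31 and -0.19. No test of the difference between classes was made. In wild-type cells the medians were 0.0093, -0.17 and -0.022. Among entries outside the rule, the 57 ACA entries had a median of 0.16 in 5-LOΔ cells, with 38 higher, and the 89 HBII entries had 0.043, with 53 higher. Length moved with class. Members of 100 bases or more had a median log2 ratio of 0.24 in 5-LOΔ cells, with 29 of 37 higher, and shorter ones -0.091, with 14 of 36 higher. The same split gave medians of 0.18 and -0.062 for 5-LOΔ over wild type without LPS and of 0.29 and -0.20 with LPS, before any rescaling. The part of RNA length or size selection in these ratios was not tested.

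**Figure D5:**
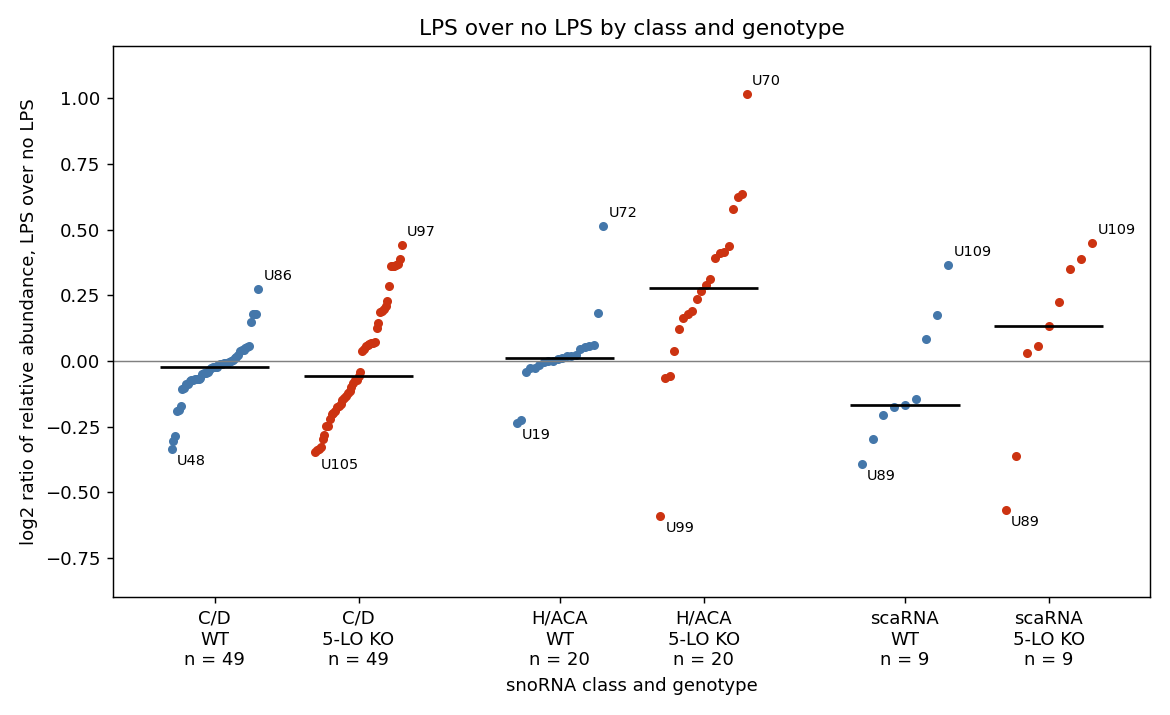
Log2 ratio of the relative abundance with LPS to that without LPS, by class and genotype, for the 78 members with at least 10 normalized counts in all 4 groups. Points are snoRNAs in order of their ratio, bars are medians, and the lowest and highest snoRNA of each column are named. The H/ACA points of 5-LOΔ (5-LO KO) cells have a median of 0.28, and those of wild-type cells a median of 0.0093.

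The lowest members show how few reads a mean can rest on. Means of up to 10 normalized counts could be resolved into whole reads of the 3 libraries. Of means from 10 to 20, 98.2% in wild-type and 98.1% in 5-LOΔ cells were resolved in 1 way. With LPS the shares were 0% in wild-type and 100% in 5-LOΔ cells. U96b (SNORD96B), at 4.96 normalized counts in the wild type, 9.75 in 5-LOΔ cells, 4.85 in wild-type cells with LPS and 4.49 in 5-LOΔ cells with LPS, rested on 2, 2 and 10 reads in the wild-type libraries, on 14, 6 and 9 in the 5-LOΔ libraries, on 7, 8 and 2 in the wild-type libraries with LPS and on 8, 2 and 4 in the 5-LOΔ libraries with LPS. The read numbers of the groups overlap. In an exact two-sided permutation test, which cannot go below p = 0.10 with 3 libraries against 3, the normalized counts of U96b gave p = 0.30 for 5-LOΔ against wild type without LPS and p = 0.90 with LPS. U73b (SNORD73B), at 12.1, 18.8, 11.7 and 6.15 in the same order, rested on 8, 0 and 10 reads in the 5-LOΔ libraries with LPS. Without LPS it rested on 21, 13 and 6 reads in the wild-type and 19, 15 and 19 in the 5-LOΔ libraries, which overlap (12.1 ± 5.04 against 18.8 ± 6.50 normalized counts, SD, n = 3, exact permutation p = 0.30). Its log2 ratio of 0.63, counted above as 1.5-fold higher, was 0.34 without the third of these wild-type libraries and 0.31 without the third of these 5-LOΔ libraries, under 1.5-fold in both cases. No ratio of U96b or of U73b with LPS in 5-LOΔ cells was counted among the calls above, because a mean lay under 10.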

How the data were processed

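Small RNA libraries were prepared from total RNA of differentiated MM6 cells, size selected for miRNAs and their precursors, and sequenced in single reads. The authors trimmed the adapters, annotated the reads against hg19 with omiRas and deposited 2 tables, without and with LPS, whose signal columns hold the mean of normalized counts of the 3 libraries of a genotype. The aligner, like the way size factors were set, is not given in the sources used here. Both tables also hold the authors' own fold changes, p-values and FDRs, which were not used. Groups were taken from the sample labels. Log2 ratios were computed with no pseudocount where both means reached 10, within a table as deposited and between tables per 1000000 of summed means. No test was run on means alone, and the 2 members whose reads could be recovered were tested by exact permutation over libraries. Members and lists were chosen with earlier results of these data known. The snoRNAs named were those of preset processing and reference lists, the 10 highest by level, the 5 highest and 5 lowest ratios per comparison at 100 or more normalized counts, those past 2-fold in the same direction in both tables, and preset host groups. Others were named after their values were seen. Size factors of the libraries (0.665 to 1.72) were recovered from means of up to 10, of which 99.3% to 100% came out as whole reads within the rounding of 6 digits. They gave the counting intervals. The steps were tested on simulated data. Symbols and lengths came from RefSeq and positions from GENCODE on GRCh37. Python 3.11.15 with pandas 2.3.3, scipy 1.17.1, pysam 0.24.0 and matplotlib 3.10.9 was used. A host gene and its comparison are not reported here.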

Additional observations from a re-analysis of the deposited data

How the results depend on the processing

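Scaling, pseudocount and the minimum level were varied, and 37 of 48 values stayed close to those reported. Close means a median within the 95% interval of the reported median over the members (from their ordered ratios) or a count within 1.5 times. That interval treats members as separate although they share libraries and host genes, so it is a loose yardstick. With LPS the median log2 ratio of 5-LOΔ to wild type went from 0.013 to -0.058 with equal sums and still counted as close. There 36 members were higher and 42 lower, in place of 40 and 38. Without LPS the median log2 ratio of 5-LOΔ to wild type was -0.091 instead of 0.084 with both groups scaled to equal sums, and 2 instead of 4 members passed 2-fold with 10 added to each mean. With LPS the count of 1 became 2 with equal sums, 0 with 10 added and 0 at a minimum of 100. A fold of 1.5, added after the data were seen, gave 21 members without and 14 with LPS. For LPS over no LPS in wild-type cells the median of -0.011 became -0.16 with means as deposited and 0.025 with the median ratio of shared entries set to 1. In 5-LOΔ cells the median of 0.066 became -0.19 as deposited, and the count of 1 became 0 as deposited, 0 with the median ratio set to 1 and 2 with no minimum. The cause was not tested. Counting U3 once, added after the data were seen, gave the preset list for precursor processing medians of 0.18 without and 0.34 with LPS in place of 0.36 and 0.38. U96b could be recomputed without each library, and its log2 ratio ranged from 0.55 to 2.45 without LPS, the highest value without the wild-type library of size factor 0.883, and from -0.40 to 0.34 with LPS. U73b, added after the data were seen, ranged from 0.31 to 0.94 without LPS. No paired analysis was possible because the deposited columns are means and carry no replicate number. Means without their libraries limit the comparisons of all other members, since a ratio cannot be set against the spread between cultures.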
